A study of Mus musculus with 9 samples.

Results

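Matrix metalloproteinases (Mmp genes), their tissue inhibitors (Timp1 to Timp4), the ADAM and ADAMTS proteases with the ADAMTS-like proteins, and the lysyl oxidases (Lox and Loxl1 to Loxl4) were examined in the liver of STAM mice. The members were picked by gene symbol, from the RefSeq symbol of the transcript each array probe was made for. The families themselves were chosen with earlier results of these data known. They comprised 89 genes measured by 122 probes, out of 55681 probes on the array. Mmp27 had no probe. Livers came from 9 male mice aged 20 weeks, 1 array per mouse. STAM-NON mice (n = 3) were non-treated STAM mice, that is C57BL/6J mice given low-dose streptozotocin, a toxin of the insulin-producing beta cells, shortly after birth and then a high-fat diet. STAM-INS mice (n = 3) had the same streptozotocin and high-fat diet and in addition received insulin glargine by subcutaneous injection. Normal mice (n = 3) received neither streptozotocin, high-fat diet nor insulin, so that diet and toxin cannot be told apart in the comparisons with Normal. Whether a liver piece held tumour was not given in the sources used here.

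As background, metalloproteinases cut collagens, proteoglycans and other parts of the extracellular matrix, and TIMPs bind and block their active site. ADAM proteases release growth factors, cytokines and receptors from the cell surface, ADAMTS proteases cut proteoglycans, procollagens and von Willebrand factor, and lysyl oxidases cross-link collagen and elastin. In the liver much of this RNA is made by stellate cells, macrophages and other non-parenchymal cells, and TIMP1 is a known marker of fibrosis. RNA came from whole liver, so that a change in the number of cells of a type cannot be told apart from a change in RNA per cell.

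Values are given as the centred log2 signal, which is the log2 of the probe's background-subtracted fluorescence less the 75th percentile of its array. A difference of 1 is 2-fold, and levels of different probes cannot be set against each other. Between 46.2% and 65.0% of the spots of an array were well above background, with the highest shares on STAM-INS replicate 1, STAM-NON replicate 3 and STAM-NON replicate 1. All 6 STAM arrays lay on slide 1 and all 3 Normal arrays on slide 2, so slide and group cannot be told apart in comparisons with Normal, whereas STAM-INS and STAM-NON shared a slide. The hepatocyte gene Alb lay between 10.2 and 10.7 on every array, and all 10 hepatocyte genes looked at were above background on all 9 arrays.

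Most of these genes gave no usable signal in liver. Of the 122 probes, 35 were above background on no array and 51 probes of 42 genes passed the filter, which asked for signal well above background on all 3 arrays of at least 1 group. By family, 8 of 22 MMP genes, 15 of 34 ADAM genes, 9 of 19 ADAMTS genes, 3 of 5 ADAMTS-like genes, 3 of 4 TIMP genes and 4 of 5 lysyl oxidase genes were tested. Among the genes not tested were Lox, whose probes were above background on no array, and the collagenases Mmp8 and Mmp13, the gelatinase Mmp9, the stromelysin Mmp3 and the macrophage elastase Mmp12. On all 9 arrays 39 member probes were above background, while 5 probes were so on every array of only 1 group.

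The promoter sequences that RefSeq places before the MMP genes differed by chromosome. A promoter was at hand for 54 of the 89 genes (59 windows, build GRCm38.p6), and the 250 bases before each start were searched. The AP-1 element TGAGTCA, on either strand, was present in 4.46% of all 32851 promoters, and in at least 1 promoter of 1395 of 27025 genes. It was present in at least 1 promoter of 7 of the 9 MMP genes on chromosome 9 (Mmp1a, Mmp1b, Mmp3, Mmp7, Mmp10, Mmp12 and Mmp13) and of 0 of the 8 MMP genes elsewhere. Of these 7 genes only Mmp7 passed the filter. The TATA box TATAAA, searched in the direction of transcription, was in 7.59% of all promoters, those of 2415 of the 27025 genes. It was found for 7 of the 9 MMP genes on chromosome 9. The GC box GGGCGG, on either strand, was in 32.7% of all promoters, those of 9555 of the 27025 genes. It was found for 6 of the 8 MMP genes elsewhere and for 0 of the 9. A match describes these windows only.

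The last 110 bases before the start are shown for 5 MMP genes of chromosome 9, to show where the AP-1 element lies, and for Timp1, Mmp14 and Adamts1, which passed the threshold in both comparisons with Normal. Capitals mark the AP-1 element, the TATA box and the GC box. The AP-1 element began 46 bases before the start in Mmp3 (chr9:7445712-7445821, plus strand), 63 in Mmp7 (chr9:7691980-7692089, plus strand), 63 in Mmp10 (chr9:7502232-7502341, plus strand), 44 in Mmp12 (chr9:7347264-7347373, plus strand) and 35 in Mmp13 (chr9:7272404-7272513, plus strand). The Mmp12 window held no TATA box, and the other RefSeq promoter of Mmp7 and that of Mmp12 held neither motif. The other windows were chrX:20870056-20870165 on the plus strand for Timp1, chr14:54431488-54431597 on the plus strand for Mmp14 and chr16:85803114-85803223 on the minus strand for Adamts1.
Mmp3: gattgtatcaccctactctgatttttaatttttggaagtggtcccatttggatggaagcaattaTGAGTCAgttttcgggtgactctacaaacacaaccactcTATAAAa
Mmp7: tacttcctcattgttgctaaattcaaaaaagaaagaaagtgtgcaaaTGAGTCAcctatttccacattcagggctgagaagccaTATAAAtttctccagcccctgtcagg
Mmp10: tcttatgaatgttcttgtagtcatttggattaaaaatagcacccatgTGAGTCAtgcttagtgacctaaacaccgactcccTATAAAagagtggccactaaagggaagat
Mmp12: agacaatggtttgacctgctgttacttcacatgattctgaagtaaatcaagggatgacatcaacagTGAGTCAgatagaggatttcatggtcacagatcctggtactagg
Mmp13: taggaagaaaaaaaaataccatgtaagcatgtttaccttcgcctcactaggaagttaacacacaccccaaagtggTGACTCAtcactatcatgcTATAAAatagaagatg
Timp1: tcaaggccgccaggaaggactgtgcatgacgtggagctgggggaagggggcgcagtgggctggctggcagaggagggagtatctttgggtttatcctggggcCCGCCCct
Mmp14: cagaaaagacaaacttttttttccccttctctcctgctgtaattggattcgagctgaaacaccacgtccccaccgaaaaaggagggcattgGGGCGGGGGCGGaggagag
Adamts1: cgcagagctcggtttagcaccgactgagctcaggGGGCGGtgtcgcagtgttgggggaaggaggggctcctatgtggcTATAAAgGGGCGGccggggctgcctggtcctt

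In non-treated STAM livers 10 of the 51 tested probes, from 9 genes, were higher than in Normal and 0 were lower at an adjusted p under 0.05. These were the inhibitor Timp1, the lysyl oxidase Loxl2 (2 probes), the membrane-bound metalloproteinase Mmp14, the ADAMTS proteases Adamts1 and Adamts9, and Adam8, Adam10, Adam15 and Adam32. Over all 26289 tested probes, 15.6% were called in this comparison, 6.36% as higher and 9.2% as lower. The members were thus called at 19.6%, a share near that of all probes, but in 1 direction. Of the 39 probes above background on all 9 arrays, 7 were called, 7 of them higher. When limma was fitted to probes above background on all arrays alone, 7 members were called higher and 2 lower, against 17.5% of those probes. The lower ones were Adamts8 and Adam26b, which in the main fit were at -0.84 (adjusted p = 0.0528) and -0.53 (adjusted p = 0.0568). The median difference of the 51 probes was 0.50, against -0.13 for all tested probes. With another background correction (normexp) the median was 0.16, against -0.11 for all probes, and 9 members were called higher and 2 lower, and with centring on the median 8 were higher and 1 lower.

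Single arrays moved this count. Without STAM-NON replicate 1, 2 or 3 there were 2, 20 and 5 calls, against 5.09%, 22.6% and 6.57% of all tested probes. Without Normal replicate 1, 2 or 3 there were 3, 2 and 1, against 4.2%, 3.99% and 3.29%. The share of all tested probes called thus moved as well. Adamts1 was past the threshold in each of the 9 fits that left out 1 array. On slide 1 the 3 STAM-NON arrays and STAM-INS replicate 1 lay in row 1 and the other STAM-INS arrays in row 2, as did all Normal arrays on slide 2. With the slide row as a block limma called 0 members, against 0.0571% of all tested probes. At an unadjusted p under 0.05, 7 members were higher and 1 lower. However, that fit links the rows through STAM-INS alone, with 1 array in row 1. Leaving out the 3 arrays with most spots detected also gave 0 calls by limma (9 higher and 3 lower at an unadjusted p under 0.05), with STAM-NON replicate 2 as the 1 mouse left in its group.

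**Figure D1:**
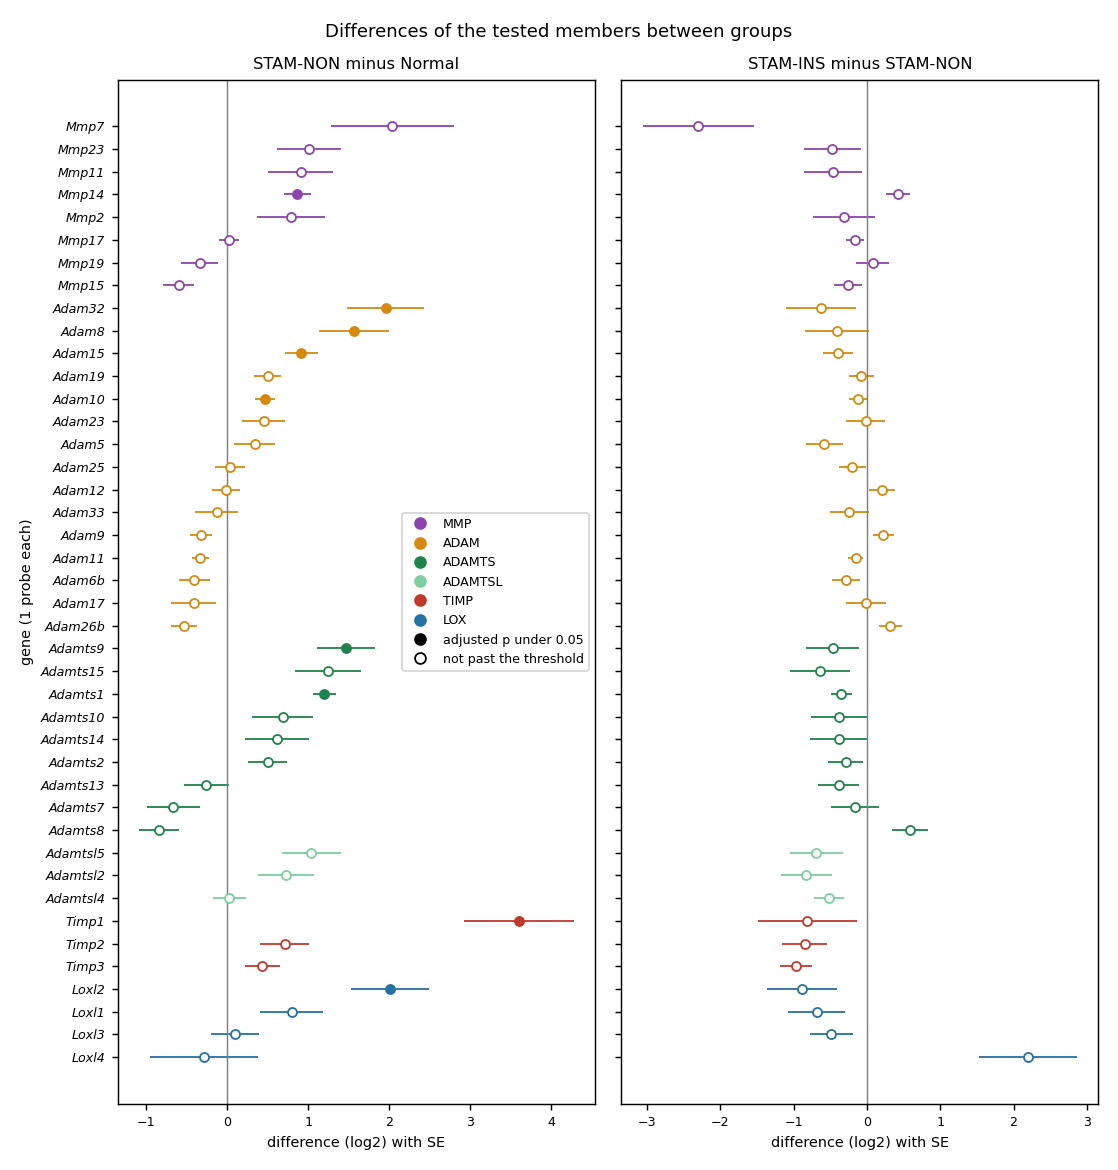
Differences in centred log2 signal with their SE for the 42 tested genes (1 probe each), coloured by family, for STAM-NON minus Normal (left) and STAM-INS minus STAM-NON (right). Filled points passed an adjusted p of 0.05, which 9 genes did on the left, all above 0, and 0 genes on the right. Timp1 and Loxl4 were above background on no Normal array, so that their points on the left are measured differences and not bounds.

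Timp1 showed the largest difference of the tested members. Its level was -0.25, -1.03 and -1.60 in the STAM-NON mice, -0.29, -2.33 and -2.68 in the STAM-INS mice and -3.70, -4.62 and -5.36 in Normal mice. Every STAM mouse was therefore above every Normal mouse, and on no Normal array was the probe above background. Measured against the detection limit of the Normal arrays, STAM-NON was higher by at least 7.69-fold and STAM-INS by at least 4.38-fold. These bounds were not tested, and limma tested the measured differences of 3.60 (adjusted p = 0.0165) and 2.79 (adjusted p = 0.0324). The other inhibitors moved less. Timp2, which also takes part in activating MMP2, was at 4.56, 3.33 and 3.91 in STAM-NON and at 3.44, 3.32 and 2.92 in Normal mice, groups that overlapped (difference 0.71 ± 0.31 SE, adjusted p = 0.138). On its other, dimmer probe STAM-NON lay above Normal without overlap, by a narrow margin in replicate 2 (0.91 ± 0.34, adjusted p = 0.0998). Timp3, which binds to the matrix and inhibits ADAM17 as well as MMPs, differed by 0.44 ± 0.22 (adjusted p = 0.189), and Timp4 did not pass the filter.

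Among the lysyl oxidases, Loxl2, which cross-links collagen, was higher in non-treated STAM livers. Its brightest probe read 1.70, 0.06 and 1.63 in STAM-NON, -0.19, 1.08 and -0.13 in STAM-INS and -0.69, -0.95 and -0.99 in Normal mice. All 3 STAM-NON mice stood above the Normal mice, with replicate 2 nearest to them (difference 2.01 ± 0.48, 4.03-fold, adjusted p = 0.030). The other Loxl2 probes gave 2.35 ± 0.50 (adjusted p = 0.0232) and 0.82 ± 0.31 (adjusted p = 0.0998), so that 1 of 3 probes did not pass. The former was above background on 1 Normal array only and passed the filter through the STAM groups. On the latter STAM-NON and Normal mice overlapped. Loxl1, which acts mainly on elastin, differed by 0.80 ± 0.39 (adjusted p = 0.180), and Loxl3 by 0.10 ± 0.30 (adjusted p = 0.839).

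Of the 8 tested metalloproteinases, Mmp14, which sits in the cell membrane, cuts collagen and activates MMP2, was the one called. Its levels were -0.14, -0.47 and 0.14 in STAM-NON, 0.31, 0.33 and 0.17 in STAM-INS and -1.12, -0.86 and -1.09 in Normal mice. The Normal mice lay below all 6 STAM mice, and the difference was 0.87 ± 0.16 for STAM-NON (1.82-fold, adjusted p = 0.0171). Mmp7, the matrilysin of epithelial cells, was high but scattered in STAM-NON, at 0.45, -2.36 and -1.29, against -2.39, -2.43 and -4.49 in Normal mice (2.04 ± 0.76, adjusted p = 0.0976). The gelatinase Mmp2 differed by 0.79 ± 0.42 (adjusted p = 0.212) and Mmp23 by 1.01 ± 0.39 (adjusted p = 0.109). The values were negative for Mmp15, another membrane-bound member (-0.60 ± 0.20, adjusted p = 0.070), and for Mmp19 (-0.34 ± 0.23, adjusted p = 0.304).

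Of the ADAM genes, 4 of 15 were higher in STAM-NON than in Normal. Adam8, a protease of myeloid cells, was at -0.57, -1.74 and -0.48 in STAM-NON and at -2.60, -2.60 and -2.30 in Normal mice (2.96-fold, adjusted p = 0.0446). Adam15 was at 2.60, 1.94 and 2.64 against 1.42, 1.58 and 1.43 (1.88-fold, adjusted p = 0.0268). In both genes STAM-NON replicate 2 was the lowest of its group, though above every Normal mouse. The sheddase Adam10, which releases Notch and other surface proteins, differed by 0.47 ± 0.13 (1.38-fold, adjusted p = 0.0422). Adam32, known mainly from testis, differed by 1.96 ± 0.48 (adjusted p = 0.0319) on 1 probe, while its other probe was above background on no array. The TNF-releasing Adam17 (-0.42 ± 0.27, adjusted p = 0.305), Adam9 (-0.33 ± 0.14, adjusted p = 0.129) and Adam12 (-0.02 ± 0.18, adjusted p = 0.955) were not called.

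In the ADAMTS family 2 of 9 genes were called. Adamts1, which cuts versican and aggrecan, gave the smallest adjusted p of the members, with levels of 1.58, 1.44 and 1.81 in STAM-NON, 1.27, 1.43 and 1.09 in STAM-INS and 0.36, 0.55 and 0.33 in Normal mice. Its replicates lay close together and both STAM groups lay above Normal (1.20 ± 0.14 for STAM-NON minus Normal, 2.29-fold, adjusted p = 0.0052). STAM-INS lay below STAM-NON by a narrow margin only (1.43 against 1.44). Adamts9, a relative with similar substrates, was at -1.16, -2.78 and -1.90 in STAM-NON and at -3.63, -3.31 and -3.31 in Normal mice (2.77-fold, adjusted p = 0.032). The procollagen-cutting Adamts2 (0.50 ± 0.24, adjusted p = 0.171) and Adamts13, which cuts von Willebrand factor (-0.26 ± 0.28, adjusted p = 0.525), did not pass. Neither did the matrix proteins Adamtsl2 (0.73 ± 0.35, adjusted p = 0.170) and Adamtsl4 (0.02 ± 0.21, adjusted p = 0.942).

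**Figure D2:**
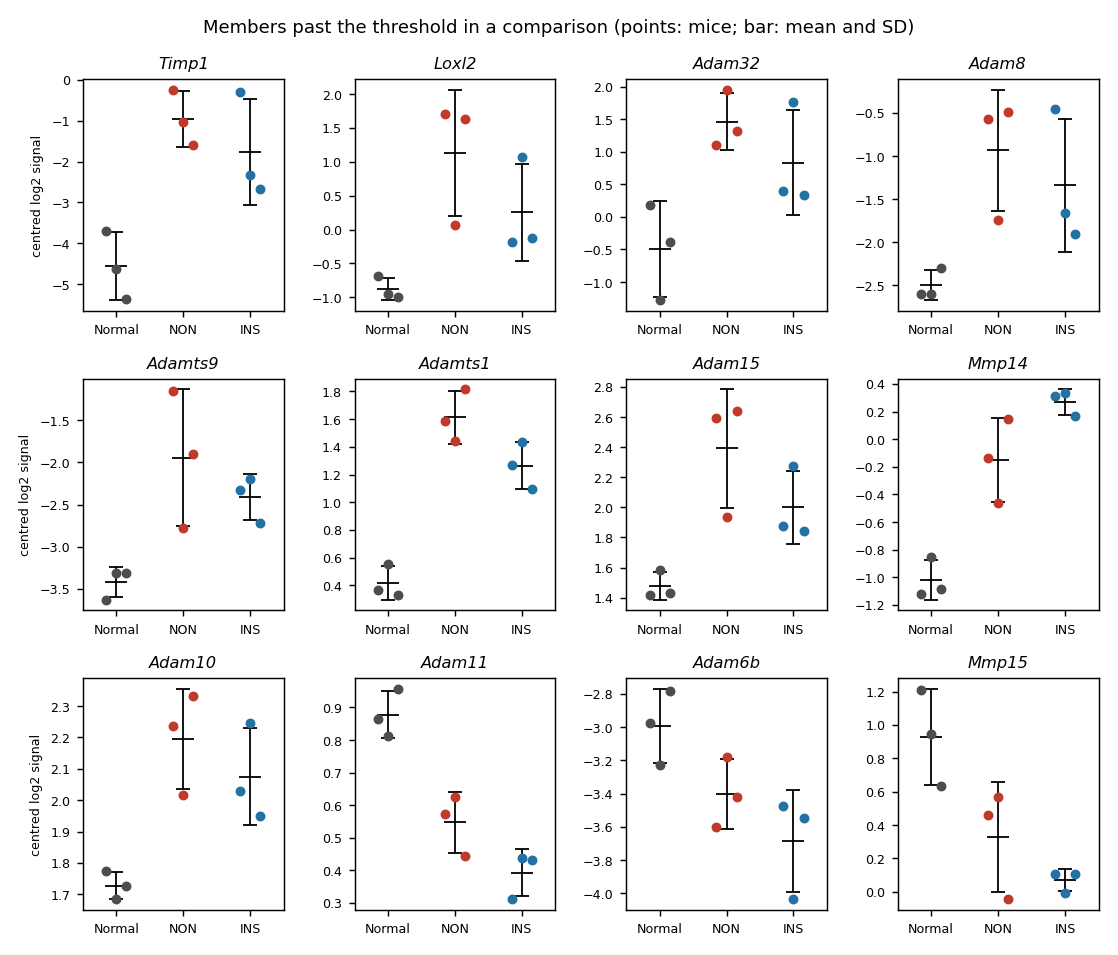
Centred log2 signal by mouse for the 12 genes past the threshold in at least 1 comparison with Normal. Points are mice in the order of replicates 1 to 3 and bars show the mean and SD of each group (n = 3). For the first 9 genes every STAM-NON mouse lies above every Normal mouse. These genes were picked by their adjusted p on the same arrays, so this adds no separate support.

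The comparison of STAM-INS with STAM-NON asked whether insulin treatment moved these genes. No member was called by limma at an adjusted p under 0.05 (0 of 51, against 0.0951% of all tested probes, lowest adjusted p = 0.321). At an unadjusted p under 0.05, 4 member probes were higher and 8 lower in STAM-INS, where 4.49% and 4.29% of all tested probes were. The difference was below 0 for 43 of the 51 probes, with a median of -0.38 against 0.02 for all probes. That median was -0.18 with normexp, -0.23 without STAM-NON replicate 1 and -0.25 without STAM-INS replicate 2. Both comparisons use the same STAM-NON mice, and in 27 of the 51 probes STAM-NON replicate 2 had the lowest level of its group.

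The inhibitors had lower values after insulin on each of their 4 tested probes, none of them called. Timp3 was at 1.71, 1.73 and 1.61 in STAM-INS, 3.06, 2.11 and 2.78 in STAM-NON and 2.31, 2.22 and 2.12 in Normal mice. The insulin-treated mice were the lowest of the 3 groups and overlapped neither of the others (difference from STAM-NON -0.97, 95% interval -1.46 to -0.47, adjusted p = 0.321). Without STAM-NON replicate 2 it was the 1 member called (-1.23, adjusted p = 0.0353), where 0.0685% of all tested probes were called. Timp2 was at 3.21, 2.73 and 3.31 in STAM-INS, below all STAM-NON mice (-0.85, 95% interval -1.55 to -0.15, adjusted p = 0.505). The margin was narrow (3.31 against 3.33), and on its other probe these groups overlapped (-0.79, adjusted p = 0.564). For Timp1 the groups overlapped (-0.81, 95% interval -2.35 to 0.73, adjusted p = 0.780).

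Loxl4 and Mmp7 differed in opposite directions between treated and non-treated STAM mice, neither past the threshold. Loxl4, a further cross-linking enzyme, read -2.23, -0.95 and -2.81 in STAM-INS, -3.84, -5.69 and -3.06 in STAM-NON and -3.91, -3.94 and -3.88 in Normal mice. It was above background on all 3 STAM-INS arrays, on 2 STAM-NON arrays and on 0 Normal arrays (STAM-INS minus STAM-NON 2.20, 95% interval 0.68 to 3.72, adjusted p = 0.472). The probe passed the filter through STAM-INS, and without STAM-NON replicate 2, where it was not above background, the difference was 1.45 (adjusted p = 0.306). A further Loxl4 probe gave 1.12 (adjusted p = 0.534), also without overlap. It too passed the filter through STAM-INS, with signal above background on 2 STAM-NON arrays and 1 Normal array. Mmp7 was at -3.04, -3.31 and -3.75 in STAM-INS, below every STAM-NON mouse (-2.30, 95% interval -4.04 to -0.56, adjusted p = 0.491). In 3 further genes the STAM-INS mice lay below all STAM-NON mice, namely Adamts1 (-0.35), Adamtsl4 (-0.52) and Adam11 (-0.15, not on its further probe). Mmp14 was above all STAM-NON mice (0.42, 95% interval 0.05 to 0.80, adjusted p = 0.536). The margin was narrow in Adamts1 (highest STAM-INS level 1.431, lowest STAM-NON level 1.439) and Adam11 (0.436 and 0.443). It was narrow in Mmp14 as well (lowest STAM-INS level 0.165, highest STAM-NON level 0.143). Groups without overlap were found for 3 probes upward and 6 downward, against 7.16% and 4.98% of all tested probes.

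**Figure D3:**
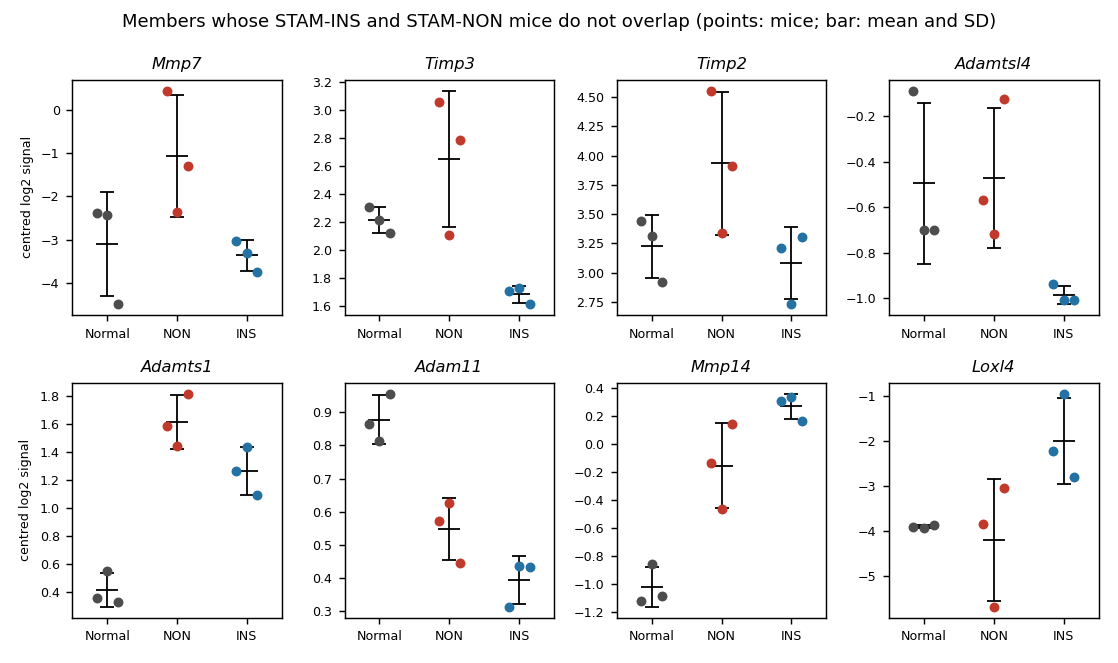
Centred log2 signal by mouse for the 8 genes whose STAM-INS and STAM-NON mice did not overlap, none of which passed the adjusted threshold. Points are mice (replicates 1 to 3 from left to right) and bars show mean and SD (n = 3). Loxl4 and Mmp14 are higher in STAM-INS and the other genes lower. In Adamts1, Adam11, Timp2 and Mmp14 the groups are apart by a narrow margin only.

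Set against Normal, insulin-treated livers had 6 of 51 member probes called, 3 higher and 3 lower, where 13.6% of all tested probes were called, 5.19% higher and 8.45% lower. The higher ones were Timp1, Mmp14 (1.29 ± 0.16, 2.45-fold, adjusted p = 0.00391) and Adamts1 (0.85 ± 0.14, 1.80-fold, adjusted p = 0.0102). The lower ones were Mmp15, Adam11 and Adam6b. Mmp15 was at 0.11, -0.00 and 0.11 in STAM-INS, 0.46, 0.57 and -0.04 in STAM-NON and 1.21, 0.95 and 0.63 in Normal mice (-0.86 ± 0.20, adjusted p = 0.0275). Adam11, a member without protease activity best known from nerve cells, differed by -0.49 ± 0.10 (adjusted p = 0.0225), with a further probe at -0.83 ± 0.31 (adjusted p = 0.111). Adam6b has near-identical copies in the genome, its signal lay close to the detection limit, and its difference was -0.69 ± 0.19 (adjusted p = 0.0498). On 1 probe Loxl4 was at least 3.56-fold higher than the Normal detection limit, and its measured difference of 1.91 did not pass (adjusted p = 0.0889). The further Loxl4 probe, above background on 1 Normal array, differed by 1.36 (2.57-fold, adjusted p = 0.0708), so the bound holds for the first probe only. With spike-in centring 3 members were called higher and 0 lower, against 7.51% of all tested probes called.

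Mmp14 was past the threshold in this comparison under each of 23 alternatives, and Adamts1 lost its call under 2 of 23. The number of calls was 2, 2 and 3 without STAM-INS replicate 1, 2 or 3 (8.01%, 4.39% and 7.27% of all tested probes). It was 4, 2 and 3 without Normal replicate 1, 2 or 3 (5.4%, 5.57% and 4.35% of all). Without STAM-NON replicate 2 there were 11 calls (16.7% of all tested probes). Differences from Normal, side by side, were 0.87 in STAM-NON and 1.29 in STAM-INS for Mmp14, 1.20 and 0.85 for Adamts1, and 2.01 and 1.13 for Loxl2, which was not called in STAM-INS (adjusted p = 0.145). These pairs share the Normal arrays.

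Genes that work with these proteases were looked at as lists. Of the plasminogen system, whose protease plasmin activates several MMPs, 6 of 8 genes were tested and 3 were called in STAM-NON against Normal. The plasminogen activator Plat was higher (at least 2.87-fold, adjusted p = 0.0185), as was the receptor Plaur (2.02, adjusted p = 0.0459), and the inhibitor Serpine2 was lower (-1.97, adjusted p = 0.0111). In STAM-INS against Normal, where 13.6% of all tested probes were called, Plat (at least 2.18-fold, adjusted p = 0.0282) and Serpine2 (-1.79, adjusted p = 0.011) were called. For Plat the adjusted p values belong to the measured differences and not to the bounds. Of 10 cathepsins and other matrix-degrading proteases, the collagen-degrading Ctsk was called (1.25, adjusted p = 0.0495). Of 11 inhibitors, inducers and sheddase partners, 3 were called, all higher. They were Tspan15 (1.17, adjusted p = 0.0354), a partner of ADAM10, and the ADAM17 partners Rhbdf1 (0.82, adjusted p = 0.0259) and Rhbdf2 (0.52, adjusted p = 0.0456). Rhbdf2 was also called in STAM-INS (0.68, adjusted p = 0.0217). Of 13 genes of collagen processing, Pcolce, which enhances procollagen cleavage, was called (1.48, adjusted p = 0.0475). In STAM-NON against Normal 50%, 10%, 27.3% and 7.69% of the genes were called, list by list, against 15.6% of all tested probes. The lists of cathepsins and of collagen processing were thus called below that share. Between STAM-INS and STAM-NON limma called 0 genes in each of these lists, with 2, 1, 1 and 0 at an unadjusted p under 0.05 in the order given.

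Markers of cell types known to make these proteins were looked at beside them. Averaged over 10 stellate cell and myofibroblast genes, the level stood 1.06, 0.35 and 0.90 above the Normal mean in the 3 STAM-NON mice and 0.67, -0.05 and 0.15 from it in the STAM-INS mice. Over 9 macrophage genes it stood 2.14, 0.96 and 1.98 above in STAM-NON and 1.57, 1.53 and 0.99 above in STAM-INS. In both lists STAM-NON replicate 2 was the lowest of its group. On the Normal arrays 7 or 8 of the 9 macrophage genes were above background. In STAM-NON against Normal, limma called 1 of the 10 stellate genes (Lum, with Acta2 at -0.09 and Reln at -0.07), 5 of the 9 macrophage genes and 3 of 5 tested cholangiocyte genes, all higher. Of all tested probes 15.6% were called, 6.36% as higher, so the stellate genes were called at a share near the latter. Between STAM-INS and STAM-NON it called 0 genes of each list, with 3, 0 and 2 at an unadjusted p under 0.05. The 10 hepatocyte genes averaged between -0.41 and -0.05 from the Normal mean in STAM-NON. The part of cell makeup in the differences above was not tested.

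Of the member probes left out by the filter, 30 were above background on at least 1 STAM array and on no Normal array. The reverse held for probes of Mmp28 and Adamts3, above background on 2 and 1 Normal arrays and on no STAM array. Mmp28 read -5.57, -0.15 and -2.03 in Normal mice, -6.83, -5.76 and -6.80 in STAM-NON and -6.99, -5.81 and -5.83 in STAM-INS. Its other probe was above background on no array. The collagenase Mmp8 read -2.77, -3.93 and -0.25 in STAM-NON and -4.76, -5.93 and -5.41 in Normal mice, with signal above background on 2 STAM-NON arrays and 1 STAM-INS array. Mmp13, the main collagenase of rodents, read -2.06, -5.87 and -3.26 in STAM-NON, -3.11, -4.29 and -4.95 in STAM-INS and -5.75, -5.96 and -5.50 in Normal mice, again above background on 3 STAM arrays. Mmp9, made by neutrophils among other cells, was above background on STAM-NON replicate 3 alone (-2.21, against -5.68 and -5.32 in the other STAM-NON mice). On that array all 9 neutrophil genes looked at were above background, as they were on STAM-NON replicate 1 and STAM-INS replicate 1. The count was 8 on STAM-INS replicates 2 and 3, 5 on STAM-NON replicate 2 and 5 to 7 on the Normal arrays. Of the neutrophil genes above background on all arrays, S100a8 (5.45), S100a9 (6.98) and Camp (3.74) were highest on STAM-NON replicate 3. They reached at most 2.32, 4.09 and 0.71 on any other array, whereas on STAM-NON replicate 3 Csf3r (7.03) lay within the Normal range and Elane (2.07) below it. Mmp12 reached -2.23 on STAM-NON replicate 1, and the proteoglycan-cutting Adamts4 was above background on 4 STAM arrays, highest at -2.26 on STAM-INS replicate 2. Mmp3 was above background on 1 STAM-NON and 1 Normal array. The part of the larger share of spots detected on 3 of the STAM arrays was not tested.

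**Figure D4:**
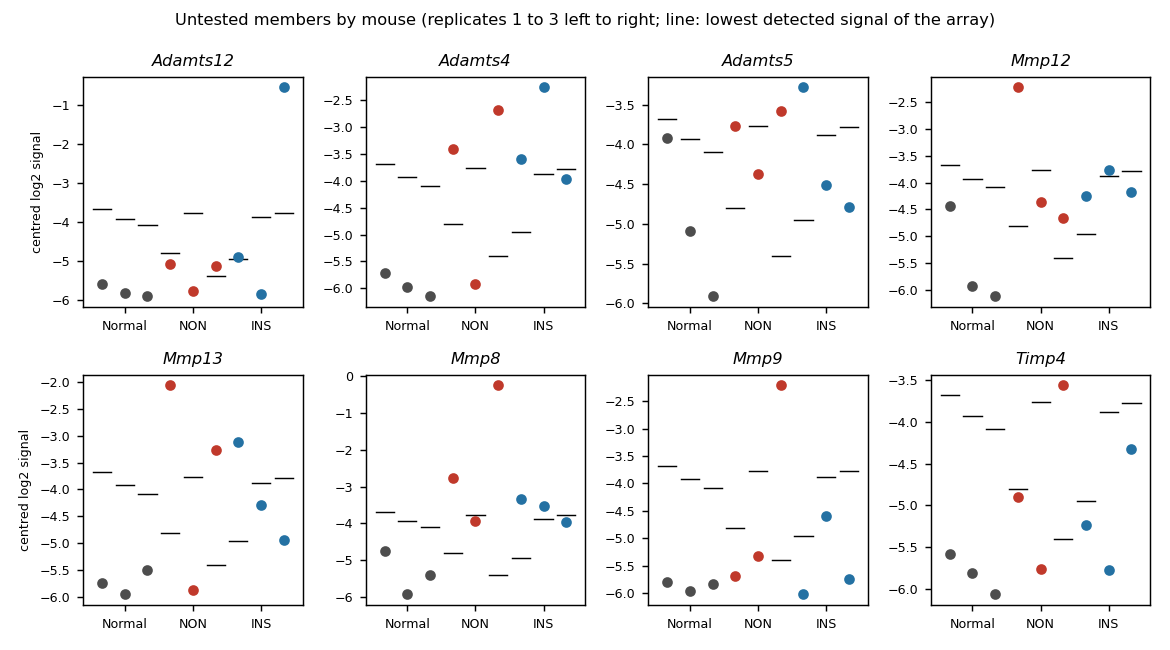
Centred log2 signal by mouse for 8 members left out by the filter on dim probes. Points are mice (Normal, STAM-NON and STAM-INS, replicates 1 to 3 in each), and short lines mark the lowest signal called above background on the same array, while detection itself was called spot by spot. Mmp8 and Mmp9 are highest on STAM-NON replicate 3, Mmp12 and Mmp13 on STAM-NON replicate 1.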

How the data were processed

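Liver RNA of 9 mice was measured on 1-colour Agilent SurePrint G3 mouse arrays (Cy3), 3 arrays in each of 3 groups. The deposited intensities, per the file headers, were background-subtracted and detrended within each array by the authors' Feature Extraction software (version 11.5.1.1), with no scaling between arrays. From these the log2 of the processed signal less the array's 75th percentile was computed, control spots and spots marked as outliers were left out, and spots of a probe were averaged. Probes were named through RefSeq symbols (27656 of 55681 named). Probes with at least 0.5 of their spots well above background on all 3 arrays of a group were tested with limma 3.58.1 in R 4.3.3 over all 9 arrays (6 residual degrees of freedom), with Benjamini-Hochberg adjustment over 26289 probes at 0.05. The script was tested on simulated data.

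A bound ("at least") sets the bright group's mean against the dim group's, where each array of the dim group counts with its detection limit or the probe's signal, whichever is higher. Bounds were not tested, and an adjusted p beside a bound belongs to the measured difference. Replicates were numbered by the labels. Other settings were normexp on the median spot signal (the mean was not in the files, with an offset of 50), quantile, detected-probe, median and spike-in centring, other filters and fits, the slide row or replicate number as a block, the methods' test, and leaving out arrays. The precision rests on 3 mice per group, and the number of arrays limits it. Named genes were those past the threshold, a list of well-known members whatever their values, and called genes of the related lists. Untested members detected on STAM arrays only or on Normal arrays only were named as well. Members and lists were chosen with earlier results of these data known. Lists for liver endothelium, pancreas and fat were also made. Of liver endothelial genes 1 of 8 was called in STAM-NON against Normal, of pancreas genes 2 of 3 and of fat genes 0 of 2, and of 7 neutrophil genes 0. The share of all tested probes was 15.6%.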

Additional observations from a re-analysis of the deposited data

Results flagged for a closer look

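The following 17 probes were left out by the filter on dim signal, so the comparisons did not use them, yet each was above background on a STAM array and on no Normal array, at a level above both the Normal mice and the highest detection limit of the Normal arrays (-3.68). The highest level is given in parentheses. On STAM-NON replicate 1 these were Adamtsl1 (-2.64), Mmp11 (-2.60), Mmp12 (-2.23) and Mmp13 (-2.06). On STAM-NON replicate 3 these were Adamts14 (-3.58), Mmp8 (-0.25), Mmp9 (-2.21) and Timp4 (-3.56). On STAM-INS replicate 1 these were Adam21 (-2.85), Adamts5 (-3.28), Adamtsl1 (-3.61) and Mmp1b (-3.08). On STAM-INS replicate 2 these were Adam4 (-3.16) and Adamts4 (-2.26). On STAM-INS replicate 3 these were Adam26a (-3.46), Adam29 (-1.90) and Adamts12 (-0.55). For 12 of the 17 the highest level was on 1 of the 3 arrays with most spots detected. Adamtsl1 is listed for 2 probes. A further 13 probes were above background on STAM arrays alone but not above that limit, for Adam18, Adam1a, Adam2, Adam22, Adam28, Adam5, Adamts16, Adamts17, Adamts2, Adamts6, Mmp21, Mmp24 and Mmp25. These differences were not tested.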

How the results depend on the processing

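In STAM-NON against Normal, where 10 member probes were called, 1 was called with no filter on dim probes, 3 with the replicate block, and 0 with the slide row as a block, with the methods' test after Benjamini-Hochberg adjustment, or without the 3 arrays with most spots detected (a setting chosen after seeing the data, which left 1 STAM-NON mouse). Of all tested probes 0.435% were called with no filter, 7.46% with the replicate block and 0.0571% with the row block. The methods' test after adjustment called 0.0989% of them. At an unadjusted 0.05 the methods' test gave 12 members, where 28.3% of all tested probes passed. Leaving out 1 array gave 1 to 20 calls, against 3.29% to 22.6% of all tested probes. In STAM-INS against STAM-NON, with 0 calls, the methods' test at an unadjusted 0.05 gave 2 (Timp3 and Adamtsl4), where 5.7% of all tested probes passed. The replicate block gave 0 (0.0228% of all tested probes) and leaving out 1 array gave 0 to 1 (0.038% to 0.213%). In STAM-INS against Normal, with 6 calls, spike-in centring gave 3 (7.51% of all tested probes) and no filter 1 (1.01%). The slide row as a block gave 2 (8.01%) and the replicate block 4 (6.85%). The methods' test at an unadjusted 0.05 gave 12 (33.2%), and leaving out 1 array 2 to 11 (4.35% to 16.7%). Without those 3 arrays 8 were called, 3 of them among the 6. Equal replicate numbers did not pair the mice (correlations of deviations from -0.29 to 0.15). Scaling moved the median of all probes in STAM-NON minus Normal between -0.29 and 0.14. All 15 calls of named genes kept their direction under the settings run, and 18 other pairs of gene and comparison passed in at least 1 of them. In STAM-NON against Normal the call was lost in 15 of 23 settings for Adam10, 14 for Adam8 and 12 for Adam15. It was lost in 10 of 23 for Adam32 and Loxl2, 11 of 22 for Adamts9 and 7 of 22 for Timp1. Mmp14 lost it in 7 of 23 and Adamts1 in 3. In STAM-INS against Normal Adam6b lost its call in 18 of 22 and Timp1 in 9 of 22. Adam11 lost it in 12 of 23 and Mmp15 in 9 of 23. Differences of named genes changed sign in STAM-NON against Normal, STAM-INS against STAM-NON and STAM-INS against Normal for 6, 4 and 1 genes with the slide row as a block, for 7, 7 and 1 without those 3 arrays, and for 1, 1 and 0 without STAM-NON replicate 2, none of them a call. With the row as a block STAM-INS minus STAM-NON rests on STAM-INS replicate 1 alone (Timp1 0.66), and without the 3 arrays it rests on STAM-NON replicate 2, so both compare 1 mouse with a group. Signal over background limits Mmp8, Mmp9 and Mmp13, above background on 1 to 3 STAM arrays and no Normal array, and Lox, on no array.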
